A study of Mus musculus with 10 samples.

Results

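The genes described here are 38 genes of the kinetochore and the spindle checkpoint, taken as a list of names, out of 18193 genes that have a probe set of their own on the arrays. All 38 had at least 1 probe set listed with that gene alone, and each was represented by the one with the highest mean over the 10 arrays. Their mRNA was measured in eggs of mice held at the second meiotic metaphase (MII oocytes), from female B6D2F1 mice (the offspring of a C57BL/6 and DBA/2 cross) primed with equine gonadotropin (eCG) and, 48 h later, 5 IU of human chorionic gonadotropin (hCG). Oocytes were collected 16 h after hCG and stripped of their cumulus cells with hyaluronidase (120 IU/ml), a treatment that all 3 groups share. The groups were the spindle-chromosome complex (SCC) cut out of the oocyte by microsurgery (3 arrays, replicates 1 to 3), the enucleated cytoplast (4 arrays, replicates 1 to 4) and the whole MII oocyte (3 arrays, replicates 2 to 4). The study asked whether maternal mRNAs are enriched at the meiotic spindle. The titles call the arrays biological replicates but name neither animals nor pools of oocytes, so p-values measure only the spread between these samples.

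The kinetochore is the protein assembly built on centromeric chromatin that binds spindle microtubules. An inner network of Cenp proteins sits on nucleosomes that carry the histone Cenpa, the Mis12 complex bridges it to the microtubule-binding Ndc80 complex, and an outer corona holds motors and the Rod-Zw10-Zwilch (RZZ) complex. The spindle checkpoint (Bub and Mad proteins and the kinase Ttk) reads unattached kinetochores and holds back the anaphase-promoting complex, and in MII oocytes, where transcription is silent, the mRNAs for all of these are maternal stores.

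The values are intensities on a linear scale. Up to 50 ng of RNA per sample was amplified in 2 rounds and a fixed 10 µg of cRNA was hybridised, so a value is a relative amount within a sample, and a larger share of a transcript cannot be told apart from a smaller amount of the other RNA beside it. Of the 38 genes, 34 lay above the array's median intensity on at least 3 of the 10 arrays and were tested, 32 of them on all arrays. Cenpb, Cenpl, Zwilch and Ska3 did not, and their probe sets gave intensities of 7.88 to 16.7. An array's background level was set at the 95th percentile of probe sets for genes of other tissues, 75.5 to 110 by array. By that level 19 of the 38 were above background on all 10 arrays and 10 on none. The SCC had 22 genes above background on all of its arrays, the cytoplast 19 and the MII oocyte group 21. Of 15 oocyte marker genes 12 were above background on every array, and of 17 cumulus cell markers measured 15 were above it on no array. The summed intensity of the cumulus markers was 524 to 623 on the SCC arrays and 533 to 547 on the cytoplast arrays (exact two-sided permutation p = 0.286). That of the oocyte markers was 40650 to 53322 on the SCC arrays and 29604 to 51717 on the cytoplast arrays (exact two-sided permutation p = 0.171). The cumulus markers Has2, Ptgs2, Tnfaip6, Ptx3, Hsd17b1, Hsd3b1 and Fst and the oocyte marker Figla were too dim to be tested. None of the other cumulus markers and 2 of the oocyte markers, Dppa3 and Kit, passed the test between SCC and cytoplast. Kitl, above background on 7 arrays, averaged 158 on the SCC and 96.1 on the cytoplast arrays (log2 difference 0.73). Foxl2, above background on 3 arrays, averaged 74.2 and 79.6 (log2 difference -0.11).

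**Figure D1:**
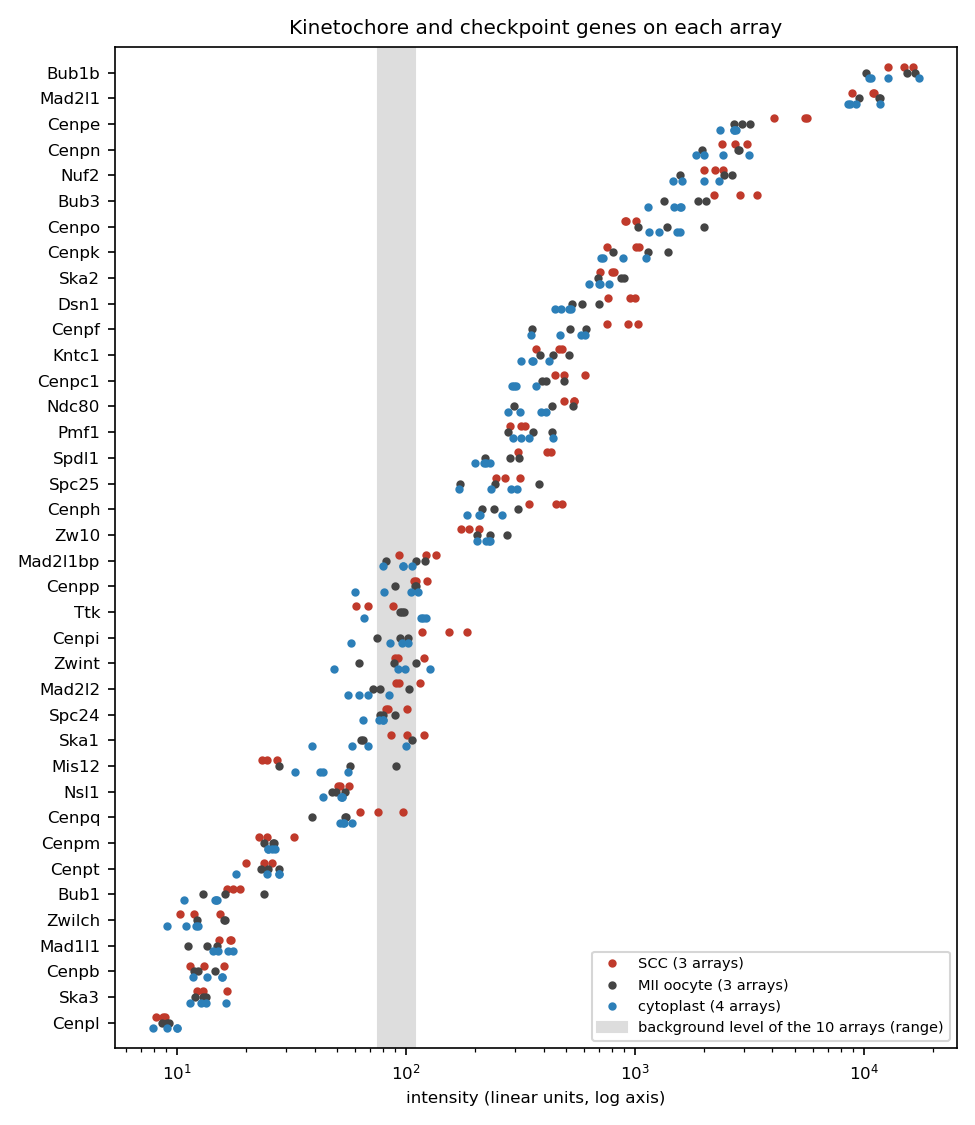
Intensity (log axis, linear units) of the 38 genes on each of the 10 arrays, with 1 dot per array coloured by group and the range of the arrays' background levels (75.5 to 110) shaded. Genes are sorted by mean only to be readable, since the brightness of different probe sets is not a measure of relative mRNA amount. The SCC dots of Cenpe, Bub3, Dsn1 and Cenph lie to the right of the other groups' dots, while those of Bub1b and Mad2l1 lie among them.

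Against the cytoplast, 8 of the 34 genes tested rose in the SCC and none fell (limma, 1 mean per group over all 10 arrays, Benjamini-Hochberg adjusted p under 0.05 over 23737 probe sets). Over all probe sets 6.74% were higher and 0.274% lower, 7.01% in either direction. The 8 were the checkpoint protein gene Bub3, the corona genes Cenpe, Cenpf and Spdl1, the Mis12 complex gene Dsn1 and the inner network genes Cenpc1, Cenph and Cenpi, and their rises lay between 1.63-fold and 1.96-fold. The median log2 difference of the 34 was 0.25, against 0.01 over all probe sets tested, and 28 of 34 (82.4%) were positive against 52.4%. The arrays of SCC and cytoplast did not overlap for 13 genes that were higher and for 2 that were lower (Cenpo and Mis12), where 13.9% and 5.89% of all probe sets did not overlap in these directions. At an unadjusted p under 0.05 the number was 15 of 34 genes (44.1%), against 20.2% of all probe sets tested.

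Bright probe sets as a class stood higher in the SCC. Among the 3944 with a mean log2 intensity above 8, the median difference was 0.28 and 20.3% passed as higher. Of the 34 genes 18 were that bright, with a median of 0.27, and 7 of these (38.9%) passed. Of the 16 dimmer genes 1 passed, Cenpi (6.25%, near the 4.03% of all dimmer probe sets). The 95th percentile of intensity was 719 ± 88.2 (SD, n = 3) on the SCC arrays and 580 ± 46.1 (SD, n = 4) on the cytoplast arrays (exact two-sided permutation p = 0.114). When the arrays were rescaled against each other by cyclic loess, 1 gene remained higher, Cenpe, and 1 passed as lower, Cenpo (2.12% of all probe sets higher and 0.505% lower). Quantile normalization gave the same 2 calls (1.77% and 0.645%). The median difference of the 34 became 0.10 and 0.07, against -0.0047 and -0.025 over all probe sets tested. The 8 genes kept positive differences under both scalings.

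**Figure D2:**
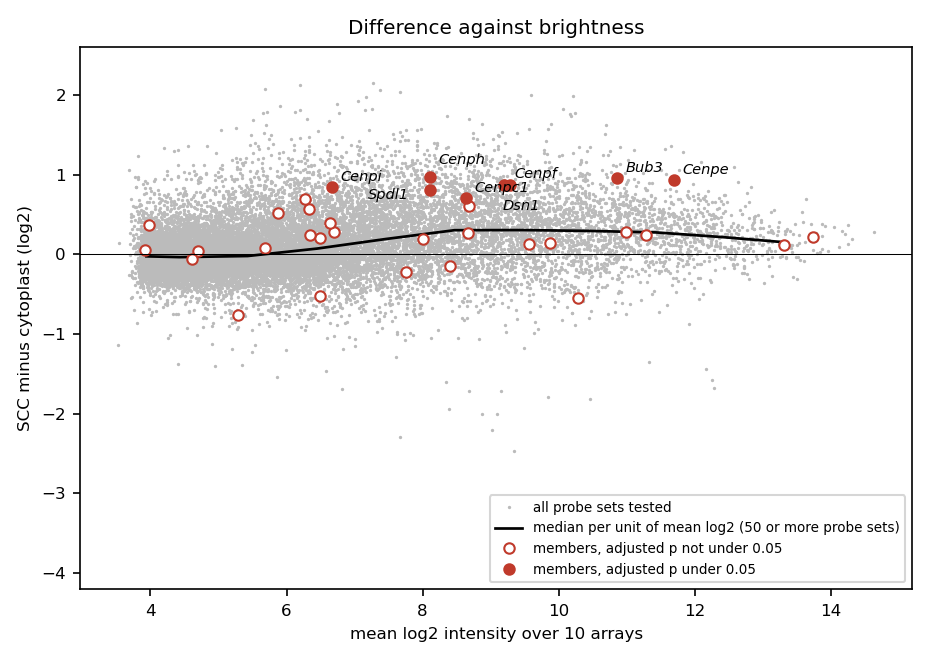
Log2 difference between SCC and cytoplast against mean log2 intensity over the 10 arrays for all 23737 probe sets tested (grey), with the median by brightness (black line) and the 34 genes as circles, filled where the adjusted p was under 0.05. The line rises from near 0 for dim probe sets to about the 0.28 median of bright ones, and 7 of the 8 filled circles are bright probe sets.

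Promoter sequences were not used in choosing the list, and those below are examples from genes that passed and 1 that did not. Cell cycle genes that peak in division often carry a cell cycle homology element (CHR, here TTTGAA or TTCGAA) and CCAAT boxes near their start. Both motifs were searched on both strands from 200 bases before to 30 bases after the start, in the 34 of the 38 genes with an entry in the RefSeq promoter table (GRCm38.p6). The sequences run 5′ to 3′ along the gene's strand, and capitals mark the 2 motifs, which read TTCAAA and ATTGG when they lie on the other strand.
Bub3, chr7:131560170-131560399, plus strand: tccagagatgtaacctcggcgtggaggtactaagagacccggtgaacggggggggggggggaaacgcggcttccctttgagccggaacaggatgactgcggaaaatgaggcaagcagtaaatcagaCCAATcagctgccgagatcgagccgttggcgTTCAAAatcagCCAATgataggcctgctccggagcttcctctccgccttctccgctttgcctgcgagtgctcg
Cenpf, chr1:189688057-189688286, minus strand: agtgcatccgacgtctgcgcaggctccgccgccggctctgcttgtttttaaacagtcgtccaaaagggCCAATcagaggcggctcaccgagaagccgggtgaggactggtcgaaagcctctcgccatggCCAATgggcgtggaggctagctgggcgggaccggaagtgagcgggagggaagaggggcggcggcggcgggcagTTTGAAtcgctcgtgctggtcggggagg
Spdl1, chr11:34833612-34833841, minus strand: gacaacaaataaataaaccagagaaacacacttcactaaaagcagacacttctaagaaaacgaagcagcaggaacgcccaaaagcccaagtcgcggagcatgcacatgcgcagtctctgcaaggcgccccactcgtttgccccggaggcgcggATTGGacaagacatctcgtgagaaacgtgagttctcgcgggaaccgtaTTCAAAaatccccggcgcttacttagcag
Cenpe, chr3:135212363-135212592, plus strand: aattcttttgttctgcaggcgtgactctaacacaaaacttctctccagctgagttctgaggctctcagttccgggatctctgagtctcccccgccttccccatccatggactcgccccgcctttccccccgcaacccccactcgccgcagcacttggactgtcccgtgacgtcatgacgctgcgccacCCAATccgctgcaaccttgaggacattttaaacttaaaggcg
Bub1b, chr2:118598011-118598240, plus strand: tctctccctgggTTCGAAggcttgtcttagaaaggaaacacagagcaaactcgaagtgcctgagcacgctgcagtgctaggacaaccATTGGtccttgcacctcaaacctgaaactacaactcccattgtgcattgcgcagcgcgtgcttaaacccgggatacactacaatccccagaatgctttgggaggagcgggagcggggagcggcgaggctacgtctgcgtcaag

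Bub3 (the first of 2 starts listed), Cenpf and Spdl1 passed the test and hold both motifs, Cenpe passed and holds CCAAT alone, and Bub1b did not pass and holds both. Of the genes that passed and are not printed, Cenpc1 and Cenpi hold CCAAT alone, and Dsn1 and Cenph hold neither motif. A CHR was found in 14 of the 34 promoters (41.2%) and in 15.0% of 27025 genes, a CCAAT box in 19 (55.9%) and 32.3%, and both in 11 (32.4%) and 4.98%. Among the 8 genes higher in the SCC, 3 held a CHR, 6 a CCAAT box and 3 both. Among the 23 genes with an entry that were tested and did not pass, the numbers were 9, 12 and 7. A match is a description of the letters in this window and not evidence of a bound factor.

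In the corona and RZZ group 3 of 6 genes tested rose in the SCC against the cytoplast and none fell, with a median difference of 0.53. Over all probe sets tested 6.74% rose, and of the bright ones 20.3%, with a median of 0.28. Whether the groups by role differ from these shares or from each other was not tested. Cenpe encodes the kinesin that carries chromosomes toward the spindle equator, and its intensities were 4049.7, 5556 and 5671 on the SCC arrays, 2771, 2370.0, 2717 and 2712 on the cytoplast arrays and 2950.1, 2714 and 3206 on the MII oocyte arrays. Every SCC array was above every array of the other groups. Cenpe was 1.91-fold higher than in the cytoplast (log2 difference 0.93, SE 0.14, adjusted p = 0.00554). It passed under all 20 alternative settings, with adjusted p from 0.00151 to 0.0388. A second, dimmer probe set of Cenpe gave 409, 338 and 392 on the SCC arrays, 114, 135, 174 and 48.2 on the cytoplast arrays and 66.7, 156 and 93.6 on the MII oocyte arrays. It also passed (3.55-fold higher, log2 difference 1.83, SE 0.38, adjusted p = 0.0175), with 3 of 4 cytoplast arrays above background. The fold differed between the 2 probe sets, and the smaller is that of the brighter one.

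Cenpf, a large coiled-coil protein of the outer kinetochore that binds microtubules, had intensities of 756, 939 and 1039 on the SCC arrays, 586, 470.4, 607 and 353 on the cytoplast arrays and 355, 613 and 521 on the MII oocyte arrays. All 3 SCC arrays lay above all arrays of the other groups, and the MII oocyte and cytoplast arrays overlapped. It was 1.83-fold higher than in the cytoplast (log2 difference 0.87, SE 0.22, adjusted p = 0.0389). Its call was lost in 11 of the 20 alternatives, the largest number among the 8 genes, among them the mean over its probe sets (1.19-fold, adjusted p = 0.453, range over its 20 alternatives 0.0150 to 0.453). That mean takes in 2 dimmer Cenpf probe sets that were below background on every array and are given no fold. Spdl1 encodes Spindly, the adaptor that brings dynein to the kinetochore, and measured 310.4, 431 and 415 on the SCC arrays, 221, 233, 224 and 200.3 on the cytoplast arrays and 222, 287 and 312 on the MII oocyte arrays. The SCC arrays were above all cytoplast arrays, while 1 MII oocyte array was above the lowest SCC array. Spdl1 was 1.74-fold higher than in the cytoplast (log2 difference 0.80, SE 0.15, adjusted p = 0.0128).

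The remaining genes of this group did not reach the threshold. Kntc1 encodes the Rod subunit and Zw10 the Zw10 subunit of the RZZ complex, which docks Spindly, and Zwint links Knl1 to the outer kinetochore. Kntc1 did not pass (log2 difference 0.27, 95% interval -0.05 to 0.59, adjusted p = 0.345). For Zw10, the value was below 0 (log2 difference -0.23, 95% interval -0.51 to 0.05, adjusted p = 0.362). Zwint, above background on 6 of the 10 arrays, had the widest interval of the group (log2 difference 0.20, 95% interval -0.43 to 0.84, adjusted p = 0.775). Its neighbour in the list, the RZZ subunit gene Zwilch, was among the 4 not tested.

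**Figure D3:**
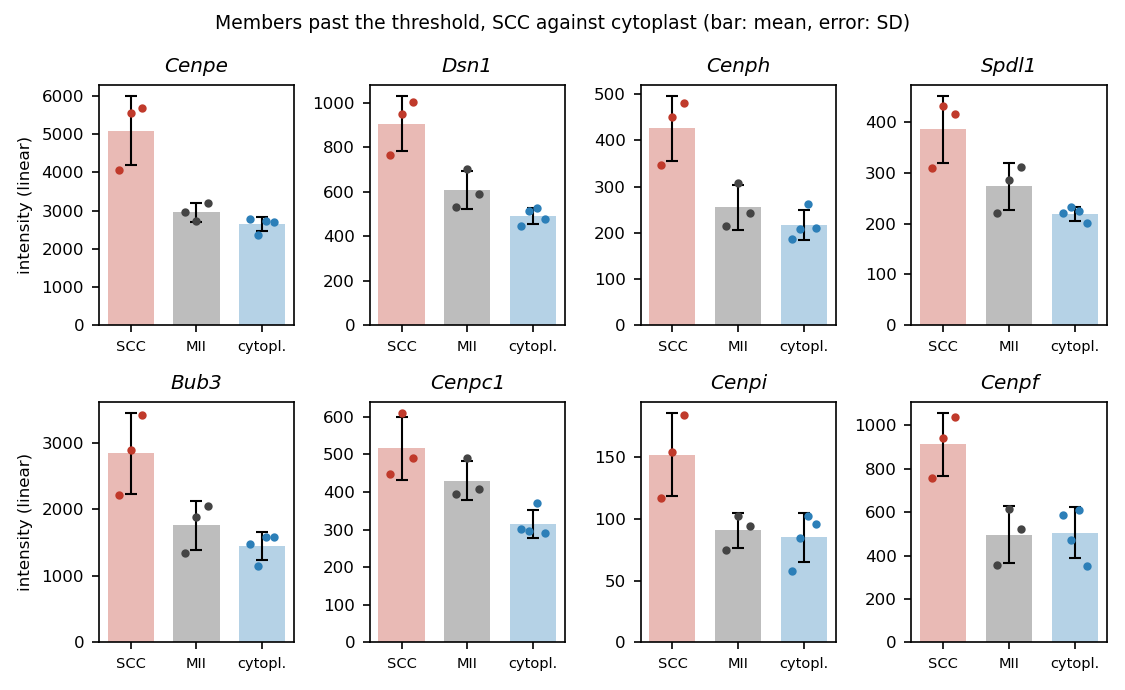
Intensity (linear units, axes from 0) of the 8 genes past the threshold between SCC and cytoplast, with 1 dot per array, bars at the group means and error bars of 1 SD (3 SCC, 3 MII oocyte and 4 cytoplast arrays). SCC dots lie above all cytoplast dots in each panel, and the MII oocyte bar lies between the other 2 in 7 panels and below both in that of Cenpf.

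Of the 8 checkpoint genes tested 1 was higher in the SCC, none was lower, and the median difference was 0.25. Of all probe sets 6.74% were higher, and of bright ones 20.3%, with a median of 0.28. Bub3, the protein that brings Bub1 and Bub1b to the kinetochore, had intensities of 2213, 2883 and 3419 on the SCC arrays, 1485, 1148, 1586 and 1589 on the cytoplast arrays and 1342, 1882 and 2053 on the MII oocyte arrays. The SCC arrays lay above all arrays of the other groups. Bub3 was 1.94-fold higher than in the cytoplast (log2 difference 0.96, SE 0.19, adjusted p = 0.0149). A second Bub3 probe set was below background on all arrays and is given no fold.

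Bub1b encodes BubR1, which with Bub3, Mad2 and Cdc20 forms the inhibitor of the anaphase-promoting complex. Its intensities were 12844, 15086 and 16373 on the SCC arrays, 12719.9, 10785, 10595 and 17408 on the cytoplast arrays and 16805, 10279 and 15446 on the MII oocyte arrays. The groups overlapped throughout, with the highest value on a cytoplast array and the lowest on an MII oocyte array. The difference was not past the threshold (log2 difference 0.22, 95% interval -0.23 to 0.67, adjusted p = 0.633), and its sign turned after cyclic loess (log2 -0.12). Mad2l1, the Mad2 that captures Cdc20, measured 8917, 11130.0 and 11015 on the SCC arrays, 9258, 8547, 8732 and 11842 on the cytoplast arrays and 11804, 9509 and 11672 on the MII oocyte arrays. These values also overlapped between all groups, and the upper end of the interval lay below the difference of Bub3 (log2 difference 0.12, 95% interval -0.21 to 0.44, adjusted p = 0.744; -0.22 after cyclic loess and -0.039 after quantile normalization).

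Ttk, the kinase at the top of the checkpoint, gave 68.3, 60.4 and 88.2 on the SCC arrays, 122, 119, 116 and 66 on the cytoplast arrays and 98.3, 94.3 and 96.5 on the MII oocyte arrays. It was above background on no SCC array, on 3 of 4 cytoplast arrays and on 2 of 3 MII oocyte arrays, and 1 cytoplast array lay among the SCC values. Against the background level it was at least 1.03-fold lower in the SCC, which did not pass (adjusted p = 0.178), and without cytoplast replicate 4 Ttk passed as lower (adjusted p = 0.0145, range over its 20 alternatives 0.0145 to 0.472). The kinase gene Bub1 (16.6, 17.6 and 18.9 on the SCC arrays, 14.7, 14.8, 15 and 10.7 on the cytoplast arrays and 16.2, 24 and 13 on the MII oocyte arrays) was below background on every array. So was Mad1l1, the anchor of Mad2 at kinetochores, at 15.3, 17.1 and 17.2 on the SCC arrays, 14.4, 17.7, 16.7 and 15.2 on the cytoplast arrays and 11.2, 15 and 13.6 on the MII oocyte arrays. No fold is given for either, and neither passed (adjusted p = 0.326 for Bub1 and 0.885 for Mad1l1).

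The other 2 genes of the group act outside the core checkpoint. Mad2l1bp (p31comet) takes Mad2 out of the inhibitor, and its difference did not pass (log2 difference 0.29, 95% interval -0.09 to 0.66, adjusted p = 0.409). Mad2l2 (Rev7), better known from DNA repair, was above background on 2 of 3 SCC arrays and on no cytoplast array, and its arrays did not overlap between the groups. Measured against the background level it was at least 1.14-fold higher in the SCC, a difference that did not pass (adjusted p = 0.0741). It passed in 3 of the 20 alternatives, with the hybridisation control level as a covariate, with the control group as a block and without cytoplast replicate 4.

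In the inner centromere network 3 of 10 genes tested rose in the SCC against the cytoplast and none fell, with a median of 0.32. The shares that rose were 6.74% of all probe sets and 20.3% of bright ones, whose median was 0.28. Cenph and Cenpi belong to 1 subcomplex with Cenpk and Cenpm. Cenph measured 347, 452 and 479.9 on the SCC arrays, 186, 208, 263 and 210.5 on the cytoplast arrays and 215, 308 and 242 on the MII oocyte arrays, with all SCC arrays above all others. It was 1.96-fold higher than in the cytoplast (log2 difference 0.97, SE 0.17, adjusted p = 0.00949). Cenpi, a dimmer probe set, gave 117, 155 and 185 on the SCC arrays, 57.7, 85, 103 and 96.2 on the cytoplast arrays and 74.9, 103 and 94.8 on the MII oocyte arrays. It was above background on all SCC arrays but on 2 of 4 cytoplast arrays and 1 of 3 MII oocyte arrays. Cenpi was 1.79-fold higher than in the cytoplast (log2 difference 0.84, SE 0.21, adjusted p = 0.0378).

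Their partners did not pass the test. Cenpk had intensities of 713 to 1117 on the cytoplast arrays and 760 to 1046 on the SCC arrays, which overlapped (log2 difference 0.14, 95% interval -0.33 to 0.60, adjusted p = 0.797). Cenpm was below background on every array (adjusted p = 0.916). Whether the difference itself varies between these genes was not tested.

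Cenpc1, which ties Cenpa nucleosomes to the Mis12 complex, measured 447, 609.5 and 491 on the SCC arrays, 303, 297, 371 and 291 on the cytoplast arrays and 394, 489 and 409 on the MII oocyte arrays. SCC and cytoplast arrays did not overlap, and 1 MII oocyte array was above the lowest SCC array. Cenpc1 was 1.63-fold higher than in the cytoplast (log2 difference 0.70, SE 0.14, adjusted p = 0.016). Cenpn, which binds the Cenpa nucleosome directly, gave 2402, 2739 and 3096 on the SCC arrays, 2443, 2014, 1852 and 3156 on the cytoplast arrays and 2854, 1968 and 2833 on the MII oocyte arrays, and the highest value was on a cytoplast array. Its difference did not pass (log2 difference 0.24, 95% interval -0.19 to 0.67, adjusted p = 0.576) and turned sign after cyclic loess (-0.062) and quantile normalization (-0.065).

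Cenpo, Cenpp and Cenpq belong to 1 further subcomplex, and none of them passed in the values as deposited. Cenpo, named here after its values were seen, had intensities of 907, 1015 and 917 on the SCC arrays, 1532, 1279.7, 1160.2 and 1577 on the cytoplast arrays and 1999.7, 1035 and 1389.6 on the MII oocyte arrays. All SCC arrays were below all cytoplast and MII oocyte arrays. Against the cytoplast it did not pass (log2 difference -0.54, 95% interval -0.97 to -0.11, adjusted p = 0.137). It passed as lower after cyclic loess (log2 -0.82, adjusted p = 0.0294), after quantile normalization (log2 -0.83, adjusted p = 0.0304) and with the 2 groups alone, and the range over its 20 alternatives was 0.0294 to 0.407. Cenpq was below background on all arrays and did not overlap between the groups, with its SCC values above the others, and no fold is given (adjusted p = 0.0859). Cenpp overlapped (log2 difference 0.40, 95% interval -0.03 to 0.83, adjusted p = 0.293). Cenpt, a second anchor of the Ndc80 complex, was below background on all arrays (adjusted p = 0.893).

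None of the 4 genes of the Ndc80 complex passed, and all 4 differences were positive (median 0.26). Of all probe sets 6.74% passed as higher and 52.4% were positive, and bright ones had a median of 0.28. Ndc80, the microtubule-binding subunit, had values of 494 to 543 on the SCC arrays and 279 to 411 on the cytoplast arrays, which did not overlap (log2 difference 0.61, 95% interval 0.18 to 1.04, adjusted p = 0.0932). It passed in 5 of the 20 alternatives, among them the fit with the 2 groups alone. Nuf2, the partner of Ndc80 at the microtubule, measured 1999, 2243 and 2425 on the SCC arrays, 1999, 1617, 1469 and 2347 on the cytoplast arrays and 2452, 1580.3 and 2658 on the MII oocyte arrays. The groups overlapped (log2 difference 0.28, 95% interval -0.16 to 0.72, adjusted p = 0.507), and the sign turned after cyclic loess (-0.014) and quantile normalization (-0.030). Spc24 and Spc25, which join the complex to the inner kinetochore, had adjusted p = 0.326 and 0.767.

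In the Mis12 complex 1 of 4 genes passed, as higher (6.74% of all probe sets and 20.3% of bright ones passed as higher). Dsn1, the subunit through which Aurora B strengthens the link to Cenpc1, had intensities of 764, 951 and 1001 on the SCC arrays, 448, 515, 528 and 476 on the cytoplast arrays and 532, 701 and 590.0 on the MII oocyte arrays. All SCC arrays were above all others, and all MII oocyte arrays above all cytoplast arrays. Dsn1 was 1.83-fold higher than in the cytoplast (log2 difference 0.87, SE 0.14, adjusted p = 0.00637). It passed whichever array was left out, but not after cyclic loess (adjusted p = 0.0627) or quantile normalization (0.0887, range over its 20 alternatives 0.00296 to 0.0887). Mis12 itself was above background on 1 of 10 arrays, an MII oocyte array. Its SCC values of 23.6 to 27.4 were below all cytoplast values (32.8 to 56.0), and no fold is given (adjusted p = 0.189). Nsl1 (adjusted p = 0.794), below background on all arrays, and Pmf1 (log2 difference -0.15, 95% interval -0.53 to 0.23, adjusted p = 0.703) did not pass.

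The Ska complex follows the ends of shortening microtubules. Of its 2 genes tested none passed (6.74% of all probe sets passed as higher). Ska2 overlapped between groups (log2 difference 0.13, 95% interval -0.15 to 0.41, adjusted p = 0.643). Ska1, above background on 2 of 3 SCC arrays and 1 of 4 cytoplast arrays, had the wider interval (log2 difference 0.69, 95% interval 0.07 to 1.31, adjusted p = 0.19).

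**Figure D4:**
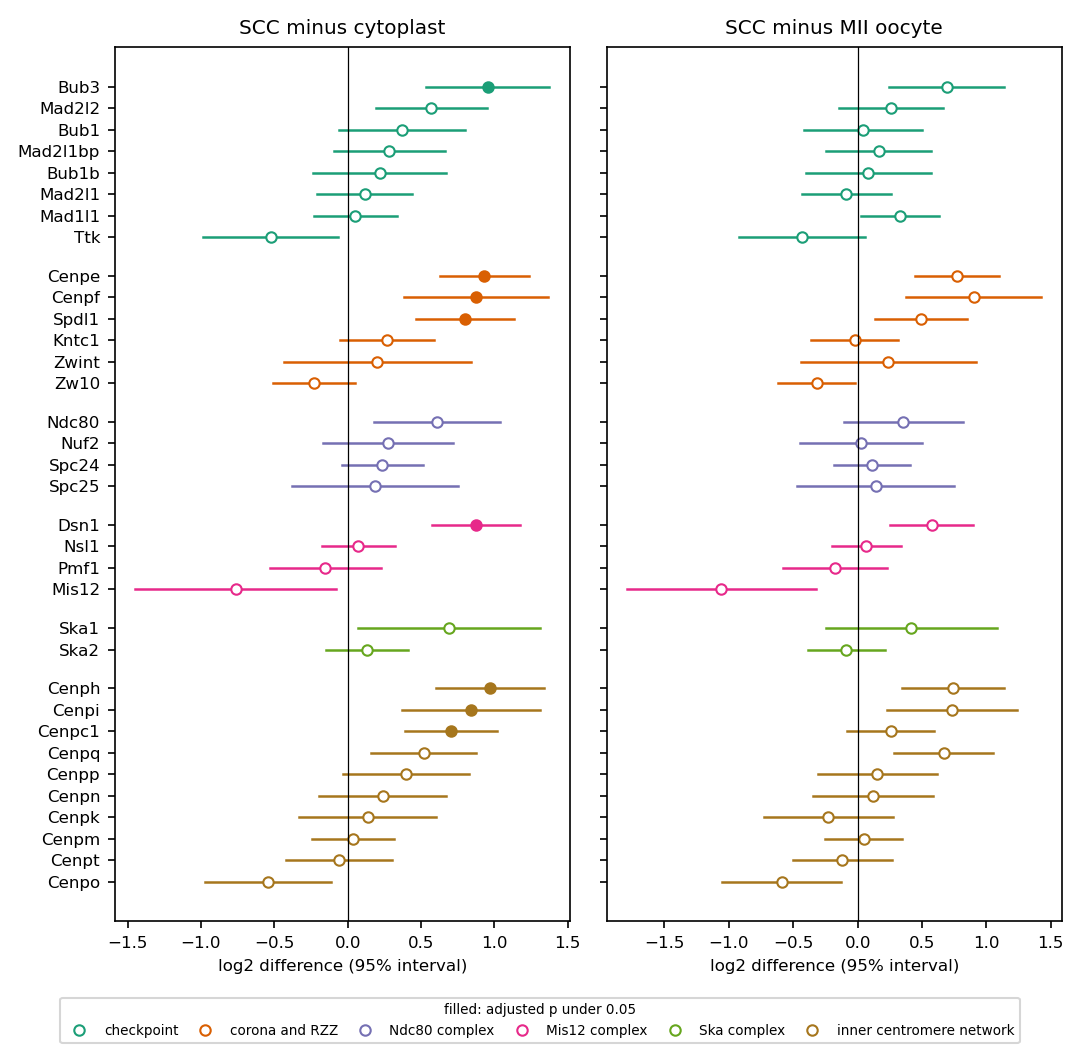
Log2 differences of the 34 genes between SCC and cytoplast (left) and between SCC and MII oocyte (right), with 95% intervals from the limma fit, grouped and coloured by role. Points are filled where the adjusted p was under 0.05, which holds for 8 genes on the left and none on the right, and both panels share the SCC arrays. Where a group was not above background, the fitted difference drawn is no measure of a fold.

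The calls depended on single arrays. Leaving out SCC replicate 2, or SCC replicate 3, left 2 of the 8, Cenpe and Dsn1 in both cases. Without cytoplast replicate 1, or cytoplast replicate 2, 5 passed, namely Bub3, Cenpe, Cenph, Dsn1 and Spdl1. With any other array left out, 6 to 10 genes passed in either direction. Cenpf was also lost without cytoplast replicate 4, and Cenpf and Cenpi without MII oocyte replicate 4.

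Hybridisation controls, RNAs added to the mixture just before it goes on the array, were brighter on 4 arrays (SCC 3, cytoplast 4 and MII oocyte 2 and 4) than on the other 6. Cytoplast 1 lay between the nearest arrays on both sides. Their mean log2 level was 10.4 ± 0.729 (SD, n = 3) for the SCC and 10.5 ± 0.548 (SD, n = 4) for the cytoplast (exact two-sided permutation p = 0.914). Bub1b, Cenpn and Nuf2 were higher on all 4 brighter arrays than on all 6 dimmer ones and no gene was lower, whereas 5.23% and 0.855% of all probe sets were. Within the dimmer arrays (SCC 1 and 2 against cytoplast 1 to 3) the 8 genes past the threshold differed by 0.61 to 0.87 on the log2 scale, and within the brighter ones (SCC 3 against cytoplast 4) by 0.76 to 1.56. For each of the 8, every SCC array lay above every cytoplast array. The positive sign within both sets of arrays was therefore fixed beforehand and tests nothing about the controls. The actin probe sets at the 3′ end of the transcript exceeded those at the 5′ end by 3.42 ± 0.201 (SD, n = 3) on the log2 scale for SCC arrays and by 4.62 ± 0.687 (SD, n = 4) for cytoplast arrays (exact two-sided permutation p = 0.0571, smallest possible 0.0286). The part of this 3′ bias in the differences was not tested.

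Against the MII oocyte, none of the 34 genes passed in either direction (0.0421% of all probe sets were higher and 0% lower). At an unadjusted p under 0.05 the limma fit gave 12 of 34 genes (35.3%, against 12.1% of all probe sets), and the smallest adjusted p was that of Cenpe. Cenpe was 1.71-fold higher than in the MII oocyte (log2 difference 0.77, SE 0.15, adjusted p = 0.0779), with every SCC array above every MII oocyte array. The SCC arrays did not overlap the MII oocyte arrays for 8 genes that were higher and 3 that were lower, against 8.71% and 5.34% of all probe sets. The median difference was 0.13 (-0.0013 over all probe sets), and 24 of 34 (70.6%) were positive, against 49.8% of all probe sets. Among bright probe sets (mean log2 above 8) the median was 0.12, near the 0.13 of the 18 bright genes. This comparison and that with the cytoplast share the SCC arrays, so the values are given side by side. Cenpf differed by 0.90 (adjusted p = 0.164), Cenph by 0.74 (adjusted p = 0.141) and Bub3 by 0.69 (adjusted p = 0.193). Cenpc1 differed by 0.26 (adjusted p = 0.567). Without MII oocyte replicate 3, 6 genes passed, with Cenpe, Cenpf, Cenph and Dsn1 higher and Cenpo and Mis12 lower. The share of all probe sets that passed without this array is not given here, so the count has no background beside it.

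Between the cytoplast and the MII oocyte none of the 34 genes passed, as was so for all 23737 probe sets (0%). The count at an unadjusted p under 0.05 was 2 of 34 genes (5.88%), near the 4.44% of all probe sets. They were Cenpc1 and Dsn1, both with lower values in the cytoplast, and also the 2 whose arrays did not overlap (3.83% of all probe sets were lower without overlap and 1.89% higher). Neither passed after adjustment, with Cenpc1 the larger of the 2 (log2 difference -0.45, 95% interval -0.76 to -0.13, adjusted p = 0.926). Dsn1 was nearer 0 (log2 difference -0.30, 95% interval -0.60 to -0.00023, adjusted p = 0.926). The median over the 34 was -0.15 and that over all probe sets -0.046. Among bright probe sets (mean log2 above 8) it was -0.18, and among the 18 bright genes -0.22. Group means fell in the order SCC, MII oocyte, cytoplast for 19 of the 34 genes (55.9%) and for 28.7% of all probe sets tested. Bright probe sets as a class had medians in this direction too, 0.28 for SCC minus cytoplast and 0.12 for SCC minus MII oocyte. The share of bright probe sets with this order is not given here. Of the 8 genes past the threshold 7 had the order SCC, MII oocyte, cytoplast, and Cenpf had its lowest mean in the MII oocyte. These 8 were picked for an SCC above the cytoplast, which excluded the reverse order beforehand. Their count is therefore not comparable with the 28.7% and tests nothing about the order.

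A second list, chosen with earlier results known and so no independent test, held 40 other genes of the kinetochore, centromere and checkpoint. Of these 37 had a probe set of their own and 36 were tested, and 8 rose in the SCC against the cytoplast and none fell (background 6.74% and 0.274% as above), with a median of 0.32. All 8 were among the 21 with a mean log2 intensity above 8 (38.1%, median 0.51). Of all probe sets that bright 20.3% rose, with a median of 0.28. Sgo2a, the shugoshin that guards centromeric cohesin in meiosis, was 2.07-fold higher (log2 difference 1.05, adjusted p = 0.0064), with 386, 431 and 477 on the SCC arrays and 151 to 248 on the cytoplast arrays. Cenpa, the centromeric histone, was 1.78-fold higher (adjusted p = 0.0211), and Mis18a, which licenses its loading, 3.96-fold (adjusted p = 0.0396). With the mean of its probe sets Mis18a was 2.42-fold higher (adjusted p = 0.0219, range over its 20 alternatives 0.00329 to 0.190). Incenp, the scaffold of the Aurora kinase complex, was 1.63-fold higher (adjusted p = 0.0187). Nup107, a nuclear pore protein also found at kinetochores, was 1.77-fold higher (adjusted p = 0.00949) and Bod1, a regulator of chromosome attachment, 1.56-fold (adjusted p = 0.0140). The microtubule plus-end protein gene Clip1 (1.43-fold, adjusted p = 0.0390) and Cenpv (1.65-fold, adjusted p = 0.0404) completed the 8. After cyclic loess Sgo2a and Nup107 passed, and after quantile normalization Sgo2a. Without SCC replicate 2, or SCC replicate 3, Sgo2a alone passed, without cytoplast replicate 1 Sgo2a and Nup107, and without cytoplast replicate 2 Sgo2a, Nup107 and Bod1.

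**Figure D5:**
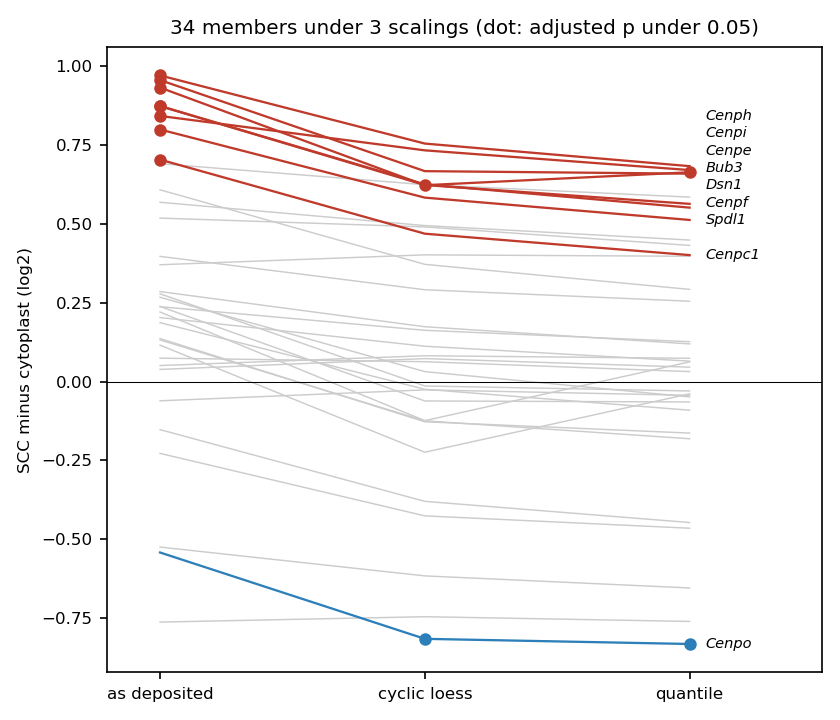
Log2 difference between SCC and cytoplast of the 34 genes in the values as deposited, after cyclic loess and after quantile normalization, with 1 line per gene and a dot where the adjusted p was under 0.05. The 8 genes past the threshold as deposited (red) fall but stay positive, Cenpe alone keeps its dot, and Cenpo (blue) gains one below 0.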

How the data were processed

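RNA of 10 samples (3 SCC, 4 cytoplast, 3 MII oocyte, grouped by their titles) was hybridised to 1-colour Affymetrix expression arrays. The authors deposited 1 linear intensity per array for each of 45101 probe sets. They made it with RMA, a method of background correction, normalization and probe summary, per the submitters' processing notes. The RMA version was not given in the sources used here. Any difference in brightness that it left between arrays enters the measurements.

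The log2 of each intensity was taken, and the 34945 probe sets that the platform annotation lists with 1 gene were named (34741 matched by gene ID to RefSeq), leaving out 932 with several genes and 9160 with none. The 38 genes had 76 such probe sets, and 19 genes had more than 1. A probe set was kept where at least 3 arrays had it above their own median (23737). The test was limma 3.58.1 under R 4.3.3, two-sided, on all 10 arrays with a mean for each group, with Benjamini-Hochberg adjustment over all kept probe sets and a threshold of 0.05. The code was tested on simulated data with known changes. Array measures were compared with exact permutation tests, where 3 against 3 arrays cannot go below 0.1. Precision is limited by how many arrays there are.

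The genes and lists were chosen with earlier results of these data known. Values on every array are given for the genes past the threshold in any comparison, the 5 brightest in the MII oocyte and the core checkpoint genes (Bub1, Bub1b, Bub3, Mad1l1, Mad2l1 and Ttk), and the rest by range or test. A group below background on all its arrays has only a bound, and no fold is given where both groups are. The 20 alternatives were 2 other scalings, 2 filters, the mean of a gene's probe sets, the compared groups alone, a trend in the moderation, the replicate number as a block, the hybridisation control level as a covariate, the control group as a block (chosen after seeing the data) and leaving out each array.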

Additional observations from a re-analysis of the deposited data

Results flagged for a closer look

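In 5 of the 38 sets of 4 cytoplast arrays, 1 array stood far from the other 3 relative to the whole range, where chance alone flags about 1 in 20 such groups. Cenpe was at 2370 on cytoplast replicate 2, below the 2712 to 2771 of the others. Cenpc1 was at 371 on cytoplast replicate 3, above the 291 to 303 of the others. Ttk was at 66 on cytoplast replicate 4, against 116 to 122 on the others. Bub1 was at 10.7 on cytoplast replicate 4, against 14.7 to 15 on the others, all below background. Nsl1 was at 43.7 on cytoplast replicate 1, against 52.4 to 52.9 on the others, also below background. The groups of 3 arrays were not examined in this way.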

How the results depend on the processing

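The number of genes past the threshold between SCC and cytoplast was 8 in the values as deposited and 2 after cyclic loess or after quantile normalization (1 higher and 1 lower each). With single arrays left out it ranged from 2 to 10. Other settings gave 6 to 11. All probe sets called split 96.1% higher as deposited, 80.7% after cyclic loess and 73.3% after quantile normalization. Against the MII oocyte the number was 0 as deposited, 1 with the mean of a gene's probe sets, 1 with the control level as a covariate and 1 with the control group as a block (Cenpe each time), and 0 to 6 with single arrays left out. Between cytoplast and MII oocyte it was 0 under every alternative. Of the second list 8 passed as deposited, 2 after cyclic loess, 1 after quantile normalization, 17 with the control level as a covariate and 15 with the control group as a block, and 1 to 12 with single arrays left out. The cause was not tested. Shares of all probe sets called are given for no setting but the values as deposited, cyclic loess and quantile normalization. Counts under the other alternatives have no such background beside them. Of the 34 genes tested, 11 had a difference from the cytoplast that turned sign under some alternative. Of the genes with values on every array these were Bub1b (-0.12 after cyclic loess), Cenpn (-0.062 and -0.065 after cyclic loess and quantile normalization), Mad2l1 (-0.22 and -0.039) and Nuf2 (-0.014 and -0.030). The other 7 were Cenpk (to -0.16), Cenpm (-0.11), Cenpt (to 0.044), Kntc1 (-0.049), Ska2 (to -0.18), Spc25 (to -0.091) and Zwint (-0.078). None of the 11 passed in any setting. Over the genes named by rule in both lists, 360 of the other comparisons with an alternative kept direction and side of the threshold, 89 kept direction but lost the threshold and 2 reached it.

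With the replicate number as a block, 8 genes passed between SCC and cytoplast and 2 between SCC and MII oocyte (Cenph, adjusted p = 0.0498, and Cenpi, adjusted p = 0.0335), and 10 of the second list. The labels do not say that a number marks a shared pool, and residuals of same-numbered arrays correlated at 0.021 on average over 8 pairs (-0.30 to 0.61), so the pairing is not established. Probe sets below background and groups of 3 or 4 arrays limit what could be detected.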
